A study of Mus musculus with 16 samples.

Results

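The TAM receptors Axl, Mertk and Tyro3 and their ligands Gas6 and Pros1 were examined in RNA-seq libraries of endothelial cells (ECs) sorted from mouse bone. The 5 genes were taken by symbol from the tables with 38926 and 38922 gene names, and by Ensembl identifier from the lists of 21603 genes in the Yap1/Taz libraries. All 5 were present in each table. The study contributed 16 libraries in 3 comparisons, all from 3-week-old C57BL/6 mice. Metaphyseal ECs (mpECs, n = 3) and ECs of the diaphyseal marrow cavity (bmECs, n = 3) came from mice labelled wildtype that carry the Cdh5-mT/nG reporter, which marks ECs with a membrane and a nuclear fluorescent protein. The Yap1/Taz libraries were made at postnatal day 21 from Yap1flx/flx; Wwtr1flx/flx mice without the Cdh5CreERT2 transgene (control, n = 3) or with it (labelled Yap1/Taz iΔEC, n = 3). The Lats2 libraries came from Lats2flx/flx mice without Cdh5CreERT2 (control, n = 2) or with it (Lats2 iΔEC, n = 2). Controls thus carried the same floxed alleles as the mutants, and recombination rests on a tamoxifen-inducible Cre driven by the promoter of the endothelial cadherin gene Cdh5. The mutant libraries were made from bone ECs without separation of metaphysis and marrow.

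TAM receptors are receptor tyrosine kinases that respond to cells exposing phosphatidylserine, a lipid that healthy cells keep on the inner face of the plasma membrane. Their ligands Gas6 and protein S, the product of Pros1, carry a vitamin K-dependent Gla domain that binds this lipid and bridges it to the receptor. The receptors are known for the removal of dying cells by macrophages and for damping innate immune signaling, and endothelial cells are a known source of protein S, which is also a circulating anticoagulant.

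The members lie on 4 chromosomes of GRCm38 (GENCODE M21) and all are protein-coding. Axl lies on chromosome 7 from 25757273 to 25788705 (minus strand), Mertk on chromosome 2 from 128698956 to 128802894 (plus strand) and Tyro3 on chromosome 2 from 119797733 to 119818104 (plus strand). Gas6 lies on chromosome 8 from 13465374 to 13494490 (minus strand) and Pros1 on chromosome 16 from 62854307 to 62929346 (plus strand). Of the exon bases of Gas6, 1.33% overlap Tmem255b on the other strand, and the other members overlap no gene. Axl, Mertk and Pros1, the members that passed the test in at least 1 comparison, have the promoter windows below, which are RefSeq sequences of GRCm38.p6 from 250 bases before to 50 bases after the transcript start, given from 5′ to 3′ on the gene's strand. Capitals mark a match to GGAATG, the core of the motif bound by TEAD factors, the DNA-binding partners of Yap1 and Taz.
Axl, chr7:25788684-25788983, minus strand: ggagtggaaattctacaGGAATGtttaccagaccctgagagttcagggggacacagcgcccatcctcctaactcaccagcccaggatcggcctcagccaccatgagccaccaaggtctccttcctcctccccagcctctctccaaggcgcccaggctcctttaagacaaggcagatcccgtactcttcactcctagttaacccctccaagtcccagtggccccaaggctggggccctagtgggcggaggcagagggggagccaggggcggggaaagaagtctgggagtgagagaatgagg
Mertk, chr2:128698665-128698964, plus strand: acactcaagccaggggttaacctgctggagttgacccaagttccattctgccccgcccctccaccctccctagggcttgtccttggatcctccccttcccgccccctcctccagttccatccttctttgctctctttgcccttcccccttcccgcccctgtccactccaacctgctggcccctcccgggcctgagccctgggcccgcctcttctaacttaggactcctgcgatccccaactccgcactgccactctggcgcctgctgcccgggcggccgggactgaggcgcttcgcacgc
Pros1, chr16:62854057-62854356, plus strand: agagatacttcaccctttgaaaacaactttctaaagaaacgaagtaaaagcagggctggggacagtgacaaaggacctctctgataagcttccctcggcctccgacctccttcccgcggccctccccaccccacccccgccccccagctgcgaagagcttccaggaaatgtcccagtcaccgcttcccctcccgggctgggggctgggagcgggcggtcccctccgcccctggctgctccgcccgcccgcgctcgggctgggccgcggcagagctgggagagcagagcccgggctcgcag
Windows for all 5 members were searched on both strands for GGAATG (reverse complement CATTCC) and for ACGTG (reverse complement CACGT), 1 form of the hypoxia response element core. The other form, GCGTG, was not searched for. The only match to either motif was the GGAATG of Axl, which begins 233 bases before the start site. Among 32851 promoter windows of this length, 14.7% held a TEAD match and 19.6% an ACGTG match. The GC content was 60.3% for Axl, 66.0% for Mertk, 73.3% for Tyro3, 58.3% for Gas6 and 66.7% for Pros1, beside a median of 52.7% over all windows.

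The deposited values are FPKM, fragment counts divided by gene length and library size, so levels can be compared between genes of a library. For the Yap1/Taz libraries, whose values carry no header, this unit was assumed. The tables were normalised separately, and a level set beside another from a different table carries that limit. Reads recovered from the FPKM values numbered 11112633 to 14742279 per library for mpECs and bmECs, 4885936 to 7166547 for the Yap1/Taz libraries and 4730044 to 7067512 for the Lats2 libraries. All 10 endothelial marker genes examined passed the filter in each comparison, with sums of 1612 to 2153 FPKM in mpECs and bmECs, 617 to 903 FPKM in the Yap1/Taz libraries and 2325 to 2943 FPKM in the Lats2 libraries. The targeted genes were read first, as a check of the labels. Wwtr1, which encodes Taz, had 10.0, 9.88 and 10.3 FPKM in the Yap1/Taz controls and 15.3, 19.6 and 19.5 FPKM in the libraries labelled Yap1/Taz iΔEC, and thus was higher in the latter (log2 fold change 0.78, SE 0.12, limma adjusted p = 0.0272). Yap1 had 1.23 ± 0.339 FPKM (SD, n = 3) and 1.15 ± 0.245 FPKM (log2 fold change -0.04, limma adjusted p = 0.934). These values go against the label, but they cover all exons of a gene and cannot show whether its floxed part was deleted. The paper reports lower Yap1 and Wwtr1 transcripts by quantitative PCR in bone ECs of such mutants, and weaker Yap1 immunostaining. The direction of every difference in these libraries is given for the label only. Lats2 had 23.4 and 24.0 FPKM in the Lats2 controls and 19.2 and 19.2 FPKM in Lats2 iΔEC ECs (log2 fold change -0.29, limma adjusted p = 0.125). Gm49361 on the same strand covers 42.4% of the exon sequence of Lats2.

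Axl was the most abundant receptor and Tyro3 the least abundant in all 16 libraries, on the FPKM scale. Axl levels ranged from 5.75 FPKM in a Lats2 iΔEC library to 120.9 FPKM in a Yap1/Taz control, and Mertk levels from 2.54 FPKM in an mpEC library to 46.2 FPKM in a Yap1/Taz control. Tyro3 did not exceed 1.82 FPKM in any library. Between the ligands, Pros1 exceeded Gas6 in 14 libraries, and Gas6 exceeded Pros1 in both Lats2 iΔEC libraries. In bmECs, Pros1 ranked between place 138 and 142 of all genes by FPKM, whereas Axl ranked between 844 and 945 and Mertk between 4315 and 4849.

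**Figure D1:**
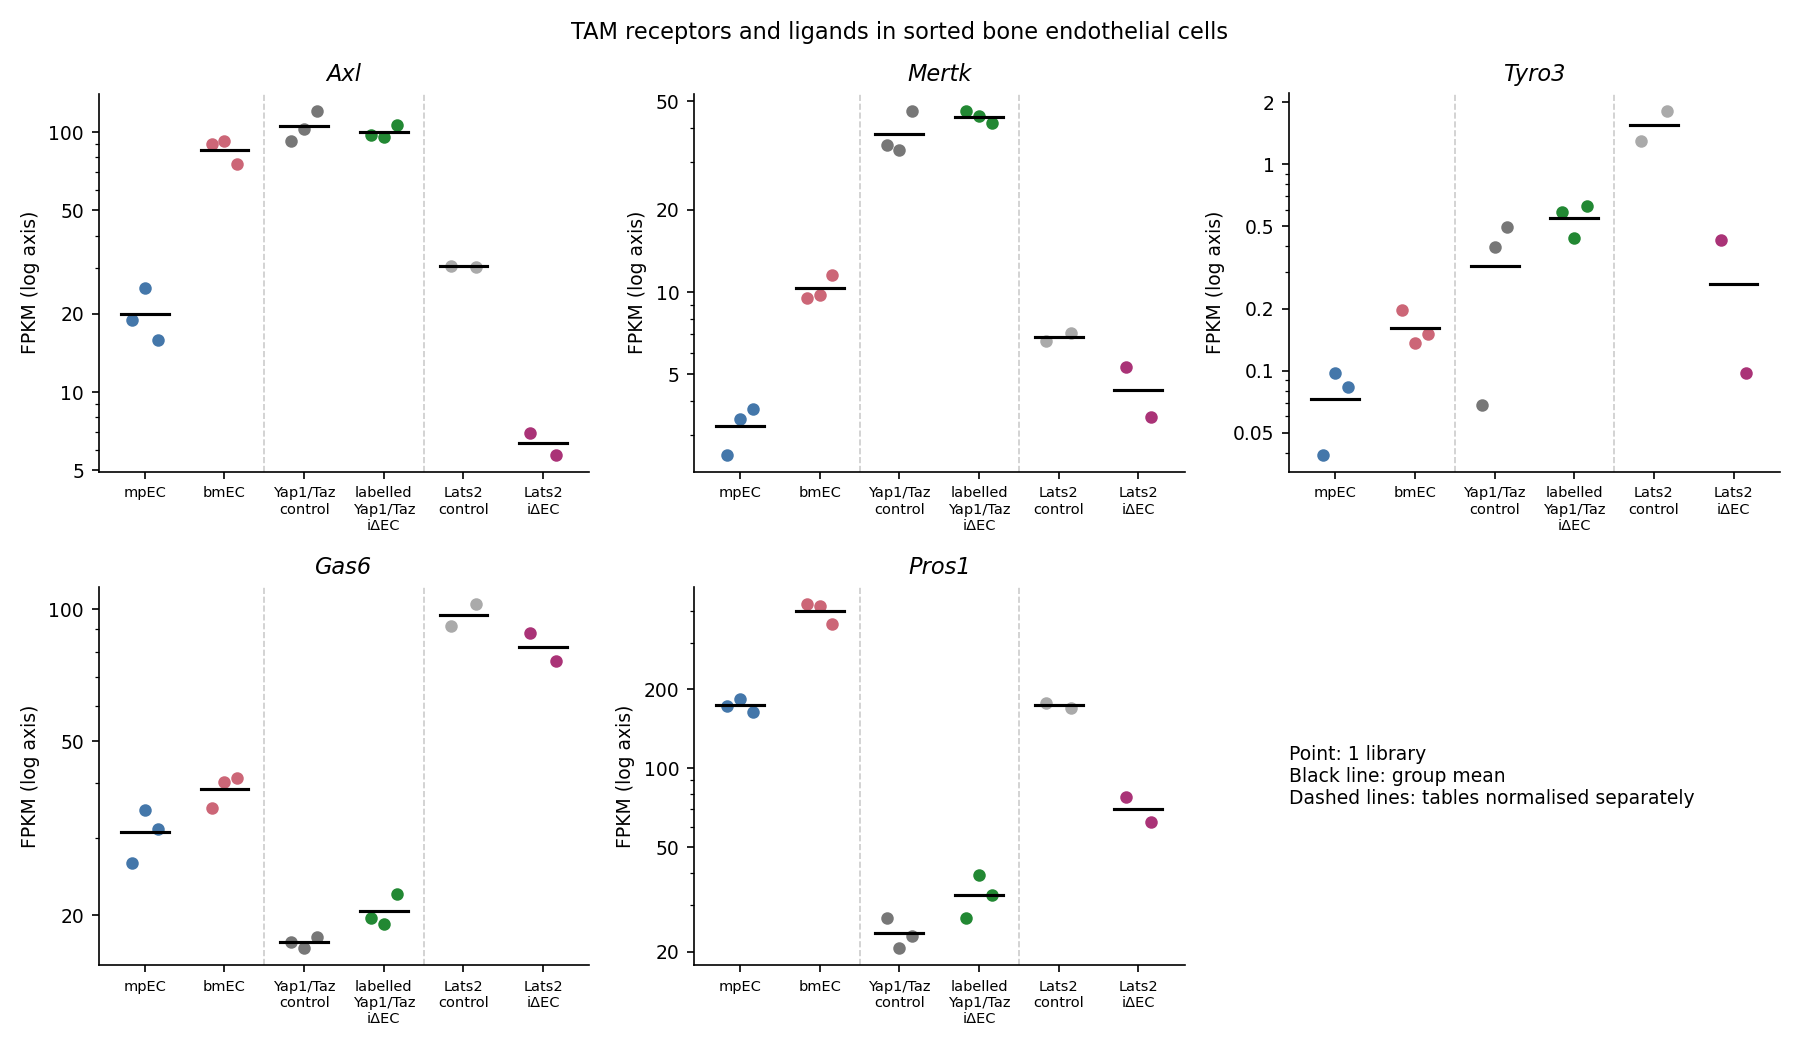
FPKM of each TAM gene (log axis) in the 6 groups, with 1 point per library and a black line at the group mean; dashed lines separate tables that were normalised separately. Each TAM gene is higher in all 3 bmEC than in all 3 mpEC libraries and lower in both Lats2 iΔEC libraries than in both controls. Only Axl, Mertk and Pros1 in bmECs and Axl and Pros1 in Lats2 iΔEC ECs passed the test. The share of all genes that separate in this way is not given here.

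The comparison of bmECs with mpECs asked how the transcripts of the marrow vasculature differ from those of the metaphysis, the region of active vessel growth beneath the growth plate. Axl, Mertk and Pros1 were higher in bmECs, whereas Gas6 did not pass the test. Of the 4 members tested, 3 were called at a limma adjusted p under 0.05 and all 3 were higher in bmECs. Over the 11422 genes tested, 23.5% were called, 13.0% higher and 10.5% lower in bmECs. With limma-voom on recovered reads, 890 genes were higher and 2414 lower, beside 1481 and 1201 in the FPKM fit. In these bulk libraries, fewer cells of a type and less RNA per cell cannot be told apart.

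Axl, which binds Gas6 with high affinity, had 19.0, 25.2 and 15.9 FPKM in mpECs and 89.7, 92.1 and 75.3 FPKM in bmECs. The groups were well apart, and each bmEC library was above each mpEC library. The log2 fold change was 2.06 (SE 0.16, limma adjusted p = 0.000124), which is 4.18-fold on the FPKM + 1 scale. Mertk, a receptor for both ligands that is best known from macrophages and other phagocytes, had 2.54, 3.42 and 3.73 FPKM in mpECs and 9.56, 9.78 and 11.6 FPKM in bmECs. Its groups did not overlap either, and its log2 fold change was 1.43 (SE 0.14, limma adjusted p = 0.000321). Tyro3, the receptor best known from the nervous system, was close to the limit of detection, with 0.0392, 0.0970 and 0.0831 FPKM in mpECs and 0.196, 0.136 and 0.151 FPKM in bmECs. These values rest on 3 to 11 recovered reads per library and lie under the filter of a mean of 1 FPKM. The groups did not overlap, and without the filter the log2 difference of 0.11 had a limma adjusted p of 0.204.

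Pros1, which encodes protein S, had 174, 184 and 164 FPKM in mpECs and 423, 418 and 354 FPKM in bmECs. All bmEC libraries were above all mpEC libraries, with a log2 fold change of 1.19 (SE 0.10, limma adjusted p = 0.000143). Gas6, the ligand of all 3 receptors, had 26.3, 34.8 and 31.5 FPKM in mpECs and 35.1, 40.2 and 41.2 FPKM in bmECs. Its groups touched without overlap and differed by 0.33 on the log2 scale (95% interval 0.05 to 0.60, limma adjusted p = 0.0842). Axl, Mertk and Pros1 were called in each of the 15 alternative fits, which include 6 without 1 of the libraries.

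Shares within a library do not depend on its scaling. Axl made up 85.5% ± 4.17 (SD, n = 3) of the summed FPKM of the 3 receptors in mpECs and 89.0% ± 2.16 in bmECs, and the ranges of 80.7% to 88.0% and 86.5% to 90.3% overlapped (exact two-sided permutation test, p = 0.3). Without mpEC replicate 3 the difference was 1.10 percentage points. Gas6 made up 15.1% ± 1.64 of the ligand FPKM in mpECs and 8.96% ± 1.39 in bmECs. Here the groups did not overlap, at 13.2%, 15.9% and 16.1% in mpECs and 7.67%, 8.78% and 10.4% in bmECs, and the exact permutation test gave p = 0.1, the smallest value that 3 against 3 libraries allow.

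**Figure D2:**
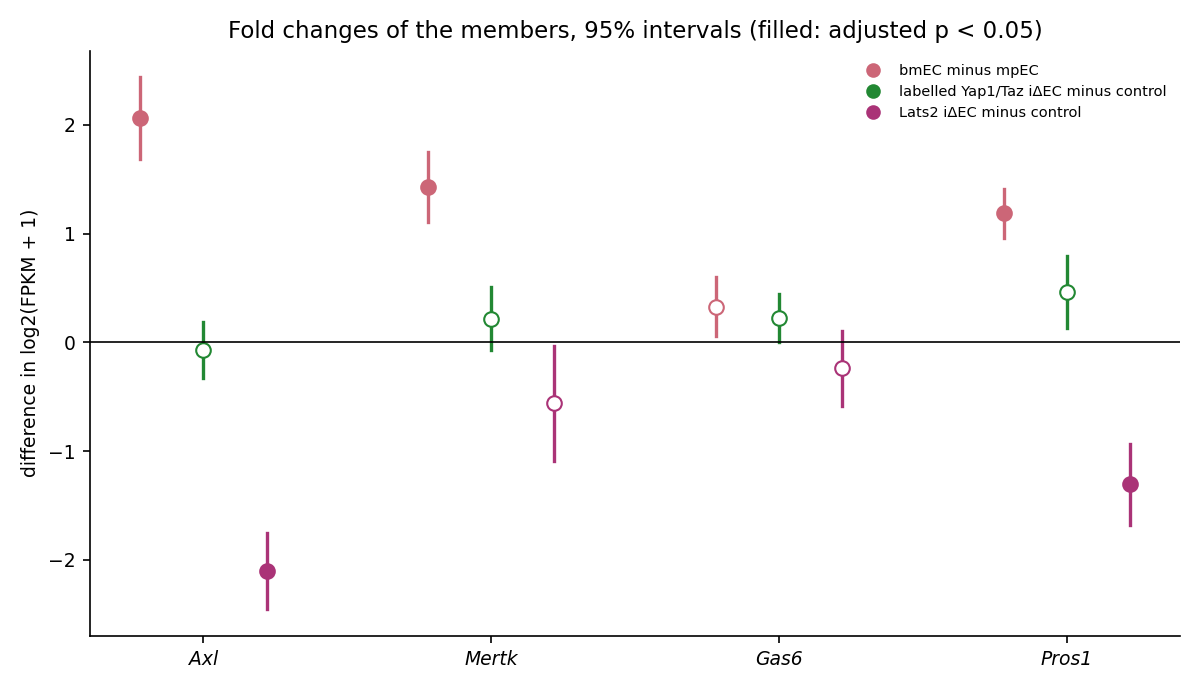
Differences in log2(FPKM + 1) for the 4 members tested, with 95% intervals from limma, in the comparisons of bmECs with mpECs, of libraries labelled Yap1/Taz iΔEC with control, and of Lats2 iΔEC with control; filled points have an adjusted p under 0.05. Axl and Pros1 lie above 0 in bmECs (2.06 and 1.19) and below 0 in Lats2 iΔEC ECs (-2.10 and -1.31), and no member is filled for the Yap1/Taz libraries.

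Markers of other cells were read beside these differences. Of the 12 macrophage markers, 7 passed the filter in mpECs and bmECs and only Mrc1 was called, with a log2 fold change of 1.74, from 98.8 ± 14.6 to 331 ± 27.2 FPKM. Mrc1 encodes the mannose receptor, which is also a gene of sinusoidal endothelium. The other 11 macrophage markers summed to 49.4 to 86.1 FPKM in mpECs and 51.5 to 79.4 FPKM in bmECs, and thus overlapped. The markers of pericytes and marrow stroma summed to 183 to 252 FPKM in mpECs and 501 to 547 FPKM in bmECs, with 3 of 5 tested genes higher and most of the sum from Kcnj8 (166 ± 33.8 and 454 ± 13.1 FPKM). Pdgfrb, Pdgfra and Cspg4 of this list were under the filter, so the sum rests mainly on Kcnj8. Osteoblast markers summed to 235 to 926 FPKM and 44.7 to 59.8 FPKM, with 4 of 6 lower, and osteoclast markers to 42.4 to 77.4 FPKM and 23.9 to 27.9 FPKM, with 3 of 3 lower. Erythroid markers summed to 28227 to 52847 FPKM in mpECs and 42447 to 60370 FPKM in bmECs (0 of 6 called). Neutrophil markers summed to 11603 to 27725 and 9430 to 13844 FPKM (0 of 7 called), also above the endothelial sums of 1612 to 2153 FPKM. Megakaryocyte markers summed to 78.2 to 339 and 80.2 to 485 FPKM (0 of 7 called), and B cell markers to 190 to 381 and 157 to 211 FPKM (1 of 6 lower). The part of these cells in the differences was not tested.

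The 47 genes of 7 lists around the TAM system were read in the same fit. In bmECs against mpECs, 37 passed the filter, of which 13 were higher and 2 were lower, with a median log2 fold change of 0.15 beside -0.00 over all genes tested. Over all genes tested, 13.0% were higher and 10.5% lower. Among the list genes, the largest log2 fold change was that of Tfpi, just ahead of Cd36 (1.92). Tfpi is in the list of genes that act with protein S in coagulation. Protein S is a cofactor for activated protein C and for tissue factor pathway inhibitor (TFPI). Tfpi had 308, 355 and 299 FPKM in mpECs and 1375, 1238 and 1067 FPKM in bmECs, and rose by 1.93 on the log2 scale (limma adjusted p = 4.61e-05). Thbd, which encodes thrombomodulin, the endothelial activator of protein C, rose by 1.30 on the log2 scale, whereas Procr, the endothelial protein C receptor, was lower by -0.48 and lost its call in 7 of 15 alternative fits. All 3 tested genes of this list were thus called, in 2 directions.

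Among the other receptors and bridges for phosphatidylserine, 3 of 7 tested genes rose in bmECs, beside 13.0% of all genes tested. These were the scavenger receptor Cd36 (log2 fold change 1.92), Stab2, a scavenger receptor of sinusoidal ECs (1.73, from 36.5 ± 9.11 to 121 ± 7.68 FPKM), and the bridging molecule Mfge8 (0.46, called in 9 of 15 alternative fits). Among the genes for phosphatidylserine exposure, 3 of 6 rose. Among them, Tmem30a, the accessory subunit of flippases that return the lipid to the inner face, had a log2 fold change of 0.43, and Plscr1 had 0.49. Gulp1, an adaptor of engulfment receptors, fell by 1.02 on the log2 scale, and in the same list the lipid transporter Abca1 rose by 0.57 and the Rac activator subunit Dock1 by 0.37. Of the 9 tested genes for TAM signal relay and feedback, 2 were higher, namely Socs3, a feedback inhibitor of cytokine signaling (1.43), and Ifnar2, a chain of the interferon receptor with which TAM receptors cooperate (0.37; 9.46% of its exon bases are shared with Gm21970). These 2 of 9 are close to the 23.5% called over all genes tested. Ggcx, the carboxylase that completes the Gla domains of both ligands, had a log2 fold change of 0.44 and was the only called gene of 3 in its list, and neither shedding protease, Adam10 or Adam17, was called. Of the 15 alternative fits, 5 called Dock1, 7 called Tmem30a, 8 each called Abca1, Ifnar2 and Plscr1, 10 called Socs3 and 11 called Ggcx. Single libraries weighed on these counts: 8 to 12 of the list genes were called when 1 library was left out, with 8 without mpEC replicate 3, 8 without bmEC replicate 2 and 9 without mpEC replicate 1.

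**Figure D3:**
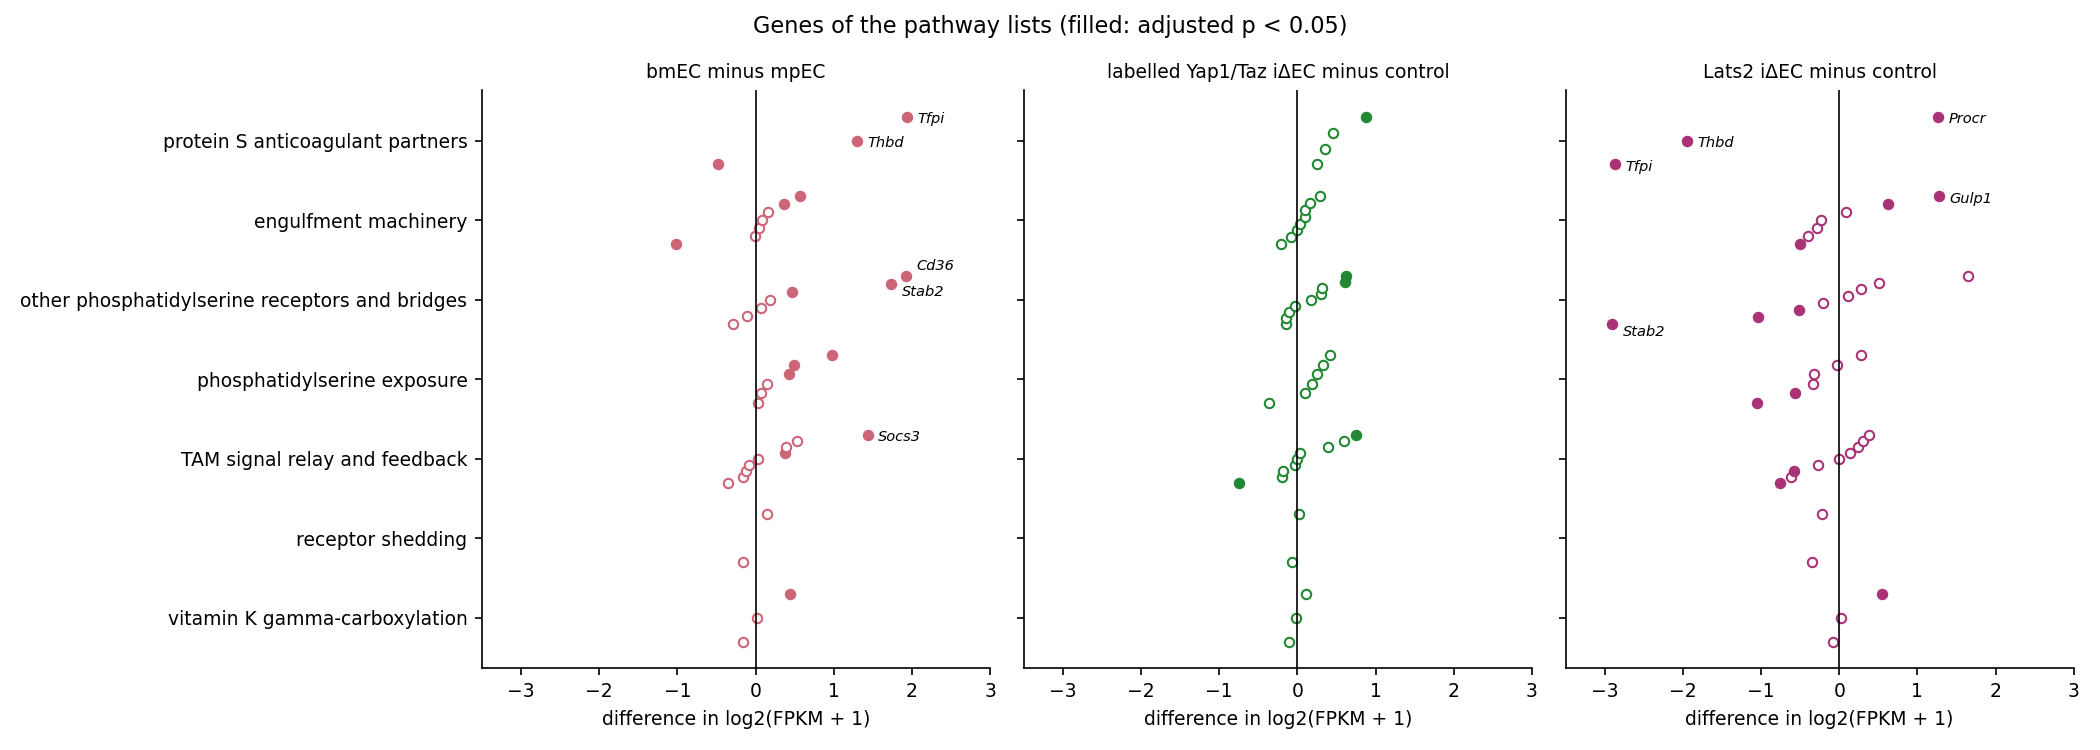
Difference in log2(FPKM + 1) of each tested gene of the 7 lists (rows) in the 3 comparisons (panels); filled points have a limma adjusted p under 0.05, and called genes that differ by more than 1.2 are named. Tfpi, Thbd and Stab2 lie to the right in bmECs (1.93, 1.30 and 1.73) and to the left in Lats2 iΔEC ECs (-2.87, -1.94 and -2.90).

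The Yap1/Taz comparison asked which endothelial transcripts change after loss of both co-activators, and Axl is a known target gene of them. No member was called in the libraries labelled Yap1/Taz iΔEC. Of the 4 members tested with limma, 0 had an adjusted p under 0.05, 1 had an unadjusted p under 0.05, and limma-voom on recovered reads also called 0 of 4. Over the 11320 genes tested, 1.31% were called, 0.883% higher and 0.424% lower. Axl had 92.4, 103 and 121 FPKM in controls and 97.4, 95.7 and 107 FPKM in libraries labelled Yap1/Taz iΔEC. The ranges overlapped, with a log2 fold change of -0.07 (95% interval -0.32 to 0.19, limma adjusted p = 0.808). Mertk had 34.6, 33.2 and 46.2 FPKM in controls and 46.0, 44.1 and 41.8 FPKM in the labelled libraries, with overlap and a log2 fold change of 0.22 (95% interval -0.07 to 0.50, limma adjusted p = 0.407). Tyro3 had 0.0680, 0.398 and 0.495 FPKM in controls and 0.587, 0.442 and 0.625 FPKM in the labelled libraries, on 2 to 22 recovered reads, and was under the filter.

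The ligands were low in these libraries compared with their own levels in the other tables, a comparison across separate normalisations. Pros1 had 27.0, 20.6 and 23.0 FPKM in controls and 26.8, 39.2 and 32.9 FPKM in the labelled libraries. The lowest labelled library lay just under the highest control, and the log2 fold change was 0.46 (95% interval 0.13 to 0.79, unadjusted p = 0.0107 and limma adjusted p = 0.140). Gas6 had 17.4, 16.8 and 17.8 FPKM in controls and 19.7, 19.1 and 22.4 FPKM in the labelled libraries, without overlap but with a log2 fold change of only 0.22 (95% interval -0.00 to 0.44, limma adjusted p = 0.280). Axl made up 73.4% ± 1.71 of receptor FPKM in controls and 69.1% ± 2.10 in the labelled libraries, and the groups did not overlap, with 72.1% as the lowest control and 71.6% as the highest labelled library (exact permutation test, p = 0.1, the smallest possible). Gas6 made up 42.6% ± 3.00 and 38.6% ± 5.09 of ligand FPKM (exact permutation test, p = 0.4), and the difference of -4.02 percentage points became -1.13 without labelled replicate 2.

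The endothelial and macrophage content of these libraries stood beside these values. The summed endothelial markers were 617 to 656 FPKM in controls and 790 to 903 FPKM in the labelled libraries, and the macrophage markers summed to 1200 to 1724 FPKM and 1216 to 1332 FPKM, with 0 of 11 tested macrophage markers called. Osteoblast markers summed to 33.2 to 45.9 FPKM and 11.1 to 24.7 FPKM, with 3 of 6 lower. B cell markers summed to 223 to 256 FPKM in controls and 179 to 185 FPKM in labelled libraries (0 of 6 called). Pericyte and stroma markers summed to 64.5 to 71.4 and 80.2 to 104 FPKM (0 of 6 called). Erythroid markers summed to 4568 to 5451 and 4394 to 6557 FPKM (0 of 6 called), and neutrophil markers to 2057 to 2700 and 1631 to 3820 FPKM (0 of 7 called). The part of these other cells was not tested. C1qa, a complement gene of macrophages, had 441 ± 81.7 and 393 ± 16.9 FPKM in controls and labelled libraries. The part of macrophages in the Mertk level was not tested. When the log2 values of each library were centred on the 10 endothelial markers, an alternative chosen after the data were seen, the median of all genes shifted to -0.39, with 73 genes higher and 5691 lower in place of 100 and 48, and Axl was called lower (log2 fold change -0.45, limma adjusted p = 0.0135), while Mertk (-0.16) and Gas6 (-0.16) changed sign and Pros1 (0.08) did not.

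Of the list genes, 41 were tested in these libraries, of which 4 were higher and 1 was lower, with a median log2 fold change of 0.09. Over all genes tested, 0.883% were higher and 0.424% lower. The higher genes were Procr (0.88, from 9.40 ± 2.09 to 18.0 ± 3.19 FPKM), Socs3 (0.75), Stab1, a scavenger receptor of sinusoids and macrophages (0.62), and the endothelial scavenger receptor Scarf1 (0.61), and the lower gene was the adaptor Grb2 (-0.75). Each of them lost its call in at least 7 of 15 alternative fits. Leaving out control replicate 2 or 3, or labelled replicate 2 or 3, ended all 5 calls. In that order, these fits called 20, 14, 1 and 1 genes of the whole table, in place of 148. Without control replicate 1, 3 list genes were called (114 in the whole table), and 7 without labelled replicate 1 (293 in the whole table).

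The third comparison was set up to examine loss of Lats2, the kinase that restrains Yap1 and Taz. The Lats2 transcript itself did not pass the test, as given above. Axl and Pros1 were lower in Lats2 iΔEC ECs, whereas Mertk and Gas6 did not pass the test. Of the 4 members tested, 2 were called and both were lower. Over the 12451 genes tested, 21.8% were called, 11.8% higher and 9.98% lower. These were 1468 and 1243 genes, beside 1273 and 2045 with voom on recovered reads and 1854 and 769 after centring on endothelial markers. Axl had 30.6 and 30.3 FPKM in controls and 6.95 and 5.75 FPKM in Lats2 iΔEC ECs. The controls were close to each other and the groups far apart, with a log2 fold change of -2.10 (SE 0.14, limma adjusted p = 0.00655), which is 4.30-fold lower on the FPKM + 1 scale. Mertk had 6.63 and 7.06 FPKM in controls and 5.32 and 3.47 FPKM in Lats2 iΔEC ECs. Its groups did not overlap, and the log2 fold change of -0.56 (SE 0.21) had a limma adjusted p of 0.114. It was called in 2 of 13 alternative fits, with voom on recovered reads (-0.85, adjusted p = 0.0445) and without Lats2 iΔEC replicate 1 (-0.81, adjusted p = 0.0466), whereas without Lats2 iΔEC replicate 2 it was -0.31 (adjusted p = 0.246). Tyro3 had 1.30 and 1.82 FPKM in controls, on 40 and 67 recovered reads, and 0.427 and 0.0972 FPKM in Lats2 iΔEC ECs, on 10 and 3 recovered reads. It was under the filter, and without the filter the log2 difference of -1.02 had a limma adjusted p of 0.0697.

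Pros1 had 178 and 170.3 FPKM in controls and 77.8 and 62.4 FPKM in Lats2 iΔEC ECs, a log2 fold change of -1.31 (SE 0.15, limma adjusted p = 0.0102). Gas6 had 91.4 and 103 FPKM in controls and 88.1 and 76.1 FPKM in Lats2 iΔEC ECs, a log2 fold change of -0.24 (95% interval -0.58 to 0.10, limma adjusted p = 0.254). The order of the ligands thus turned between the groups. Gas6 made up 34.0% and 37.6% of ligand FPKM in controls and 53.1% and 55.0% in Lats2 iΔEC ECs. Axl made up 79.4% and 77.3% of receptor FPKM in controls and 54.7% and 61.7% in Lats2 iΔEC ECs. Neither pair of groups overlapped, and the exact permutation test gave p = 0.33 for both shares, the smallest value that 2 against 2 libraries allow. The calls for Axl and Pros1 held in 11 of 13 alternative fits. The exceptions left out Lats2 control replicate 1 or 2, which leaves a single control assumed to vary like the mutants, and in these fits no gene of the whole table was called. Without control replicate 1 the log2 fold change was -2.10 for Axl and -1.28 for Pros1, and without control replicate 2 it was -2.11 and -1.34.

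**Figure D4:**
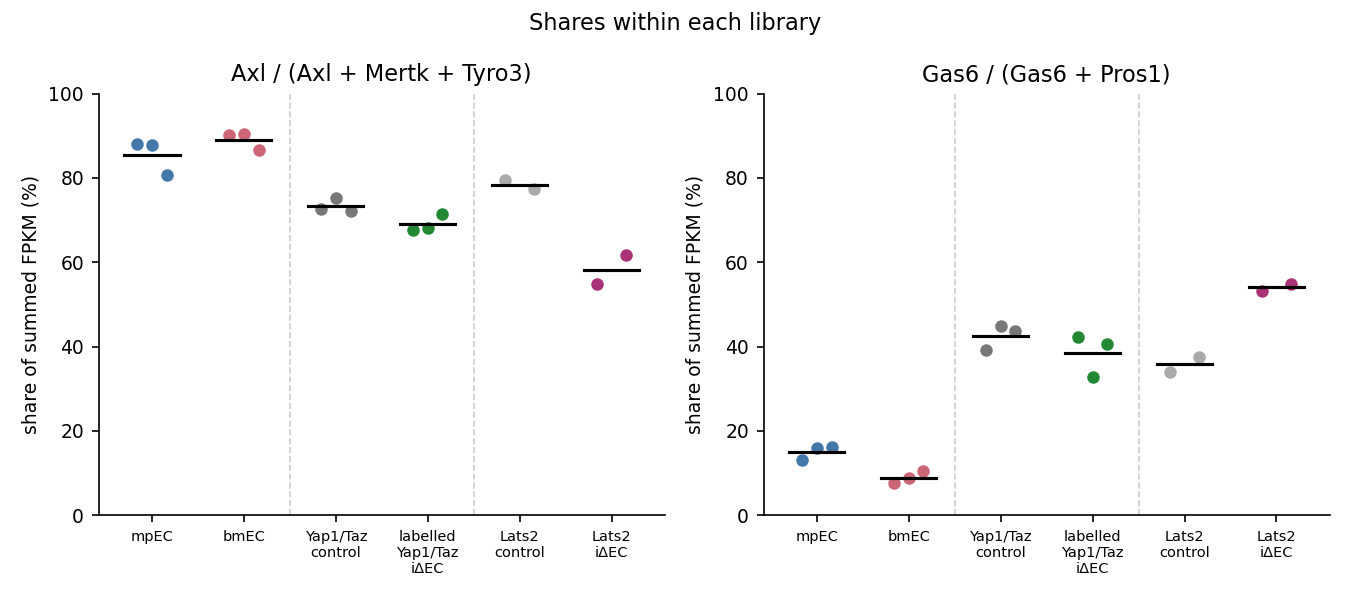
Share of Axl in the summed FPKM of the 3 receptors (left) and of Gas6 in the summed FPKM of the ligands (right), in percent, with 1 point per library and a black line at the group mean. The Gas6 share is lower in bmECs than in mpECs (7.67% to 10.4% against 13.2% to 16.1%) and higher in Lats2 iΔEC ECs than in controls (53.1% and 55.0% against 34.0% and 37.6%).

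The macrophage marker Mrc1 moved with Axl and Pros1 here as well, from 151 and 137 FPKM in controls to 25.2 and 12.4 FPKM in Lats2 iΔEC ECs (log2 fold change -2.95, limma adjusted p = 0.00987), and it was the only called gene of 6 macrophage markers tested. The other 11 markers of the list summed to 12.9 to 21.9 FPKM in controls and 19.4 to 47.3 FPKM in Lats2 iΔEC ECs, with Vsig4 at 0 in all 4 libraries. Other cells differed more. Neutrophil markers summed to 1918 to 2873 FPKM in controls and 703 to 843 FPKM in Lats2 iΔEC ECs (5 of 7 tested genes lower), and B cell markers to 91.1 to 110 and 25.1 to 34.3 FPKM (5 of 6 lower). Without overlap as well, erythroid markers summed to 2394 to 3641 and 242 to 1389 FPKM (0 of 6 called), megakaryocyte markers to 29.5 to 115 and 9.79 to 12.1 FPKM (1 of 5 lower) and T and NK cell markers to 5.10 to 7.63 and 0.899 to 1.36 FPKM (1 of 2 lower). The markers of pericytes and marrow stroma were divided, with Pdgfra and Cspg4 under the filter. Their sum was 398 to 442 FPKM in controls and 119 to 139 FPKM in Lats2 iΔEC ECs, most of it from the potassium channel gene Kcnj8 (379 ± 27.6 and 69.0 ± 19.3 FPKM), which was lower, whereas Cxcl12 and Rgs5 were higher, 3 of 6 were not called and the median log2 fold change was 0.43. Endothelial markers summed to 2718 to 2943 and 2325 to 2570 FPKM. The part of these cells in the differences was not tested. After centring on the endothelial markers, Axl had a log2 fold change of -1.92 and Pros1 of -1.13, and both were still called.

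Of the list genes, 38 were tested with the Lats2 libraries, of which 4 were higher and 10 were lower, with a median log2 fold change of -0.21. Over all genes tested, 11.8% were higher and 9.98% lower. The partners of protein S again showed large differences. Tfpi had 566 and 548 FPKM in controls and 85.0 and 66.5 FPKM in Lats2 iΔEC ECs (log2 fold change -2.87, limma adjusted p = 0.00574), and Thbd had 546 and 538 FPKM in controls and 161 and 122 FPKM in Lats2 iΔEC ECs (-1.94, limma adjusted p = 0.00759). Procr moved the other way, from 24.8 and 19.9 to 49.3 and 61.3 FPKM (1.27, limma adjusted p = 0.0131). Among the phosphatidylserine receptors, 3 of 8 tested genes fell, namely Stab2 (-2.90), Stab1 (-1.04) and Scarf1 (-0.51), while Cd36 (-0.20) and Mfge8 (0.11) were not called. The flippase subunit Tmem30a fell by 0.56 on the log2 scale. In the engulfment list, Gulp1 (1.28) and Abca1 (0.62) were higher and the adaptor Crk was lower (-0.50). Of the signal relay genes, Pik3r1, a regulatory subunit of phosphoinositide 3-kinase, fell by 0.76 on the log2 scale. Vkorc1, which regenerates the vitamin K needed for both ligands, was higher (0.54), with 47.7% of its exon bases shared with Gm21974. Of the 13 alternative fits, 4 called Vkorc1, 6 each called Abca1, Crk and Scarf1, 7 called Tmem30a, 8 called Stab1, 9 called Pik3r1 and 10 called Procr. Without Lats2 control replicate 1 or 2, 0 list genes were called, and 4 were called without Lats2 iΔEC replicate 2.

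The genes whose pattern was most like that of each member were sought by Pearson's r over the 16 libraries, after subtraction of each table's mean of log2(FPKM + 1), among 4947 genes that averaged 5 FPKM or more in each table. The genes share their libraries, the group differences given above enter every r, and the values are given as a description. Closest to Axl were the kinase gene Jak1 (r = 0.992), Cyp4b1 (0.990) and Sumo3 (0.988). Jak1 had log2 fold changes of 1.47 in bmECs, 0.08 in the labelled Yap1/Taz libraries and -1.42 in Lats2 iΔEC ECs, and Cyp4b1, a cytochrome P450, had 2.40, 0.07 and -2.47. Closest to Pros1 were Sptlc2 (r = 0.990), a subunit of the enzyme that starts sphingolipid synthesis, Serpinb9 (0.981) and F8 (0.980). F8, the gene of coagulation factor VIII, which is made by sinusoidal ECs, had log2 fold changes of 1.97, 0.49 and -2.49. Closest to Mertk were Tgfbr3 (r = 0.946), Cdkl1 (0.945; 4930512B01Rik on the opposite strand covers 20.4% of its exons) and Rnf185 (0.944), and closest to Gas6 were Dag1 (0.948), Snrk (0.931) and Dock1 (0.929). Among the members themselves, r was 0.916 between Axl and Pros1, 0.863 between Axl and Mertk, and 0.696 between Axl and Gas6.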

How the data were processed

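RNA-seq was carried out on 16 libraries of sorted bone ECs. Stranded total RNA libraries were sequenced as read pairs on a MiSeq. The methods describe mapping to GRCm38 by TopHat and gene counts by HTSeq, for which the submitters' processing notes give version 0.6.1. The authors deposited FPKM values, and the tool behind that step and the strand setting of the counting are not given in the sources used here. The values of the Yap1/Taz libraries carry no header and were read as FPKM. With gene lengths, 62.4% to 63.4% of their values of up to 20 reads were whole to within 0.02 reads (4% by chance). In the other tables the share was 67.6% to 70.0%. This shows scaling by gene length, and the unit itself was not tested.

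From these, log2(FPKM + 1) was tested with limma 3.58.1 in R 4.3.3, separately per table, over genes that averaged 1 FPKM or more, with a group term, a mean-variance trend and two-sided Benjamini-Hochberg adjusted p-values over all genes tested. A call is an adjusted p under 0.05. Fold changes on this scale understate those of low genes. The authors used DESeq2 on counts. It was not run here, and limma-voom was the test on recovered reads. Shares were compared by exact permutation tests in scipy 1.17.1. Lengths and overlaps came from GENCODE M21, and the procedure was tested on simulated data. Alternatives were a pseudocount of 0.1, no filter or one of 5 FPKM, no trend, quantile and 75th-percentile scaling, a replicate block, voom on recovered reads, an adjusted p under 0.01 with a log2 fold change over 0.5, and leaving out each library. Centring on endothelial markers was added after the data were seen.

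The 5 members and all lists were chosen with earlier results of these data known. Named were the members, the targeted genes, up to 3 called genes of each list and comparison by size of change, and the 3 genes closest in pattern to each member. Some list genes that this rule names are not reported here. Mrc1, C1qa, Kcnj8, Cxcl12 and Rgs5 were named after their values were seen. Nothing in the labels states which animals the libraries came from, so p-values measure the spread between libraries. The replicate numbers did not pair the libraries (same-number correlations of deviations 0.09 to 0.31 for mpECs and bmECs, -0.18 to -0.12 for Yap1/Taz and 0.07 for Lats2). Tables were handled in pandas 2.3.3 (Python 3.11.15) and plots drawn in matplotlib 3.10.9.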

Additional observations from a re-analysis of the deposited data

How the results depend on the processing

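Of the alternatives, those that left out a Lats2 control ended the calls of Axl and Pros1, with 0 of 4 members called in either fit and 0 to 3 over the 4 fits that left out 1 library. At an adjusted p under 0.01 with a log2 fold change over 0.5, 1 member was called for Lats2, and the list genes called were 6 for bmECs, 0 for Yap1/Taz and 2 for Lats2. Without a filter on low values, 8, 0 and 9 list genes were called, beside 2420 of 21547, 1 of 16044 and 1389 of 19818 genes tested. Without the mean-variance trend, 0 list genes were called for Yap1/Taz and 8 for Lats2, beside 17 of 11320 and 2240 of 12451 genes tested. After centring on endothelial markers, 1 member and 21 list genes were called for Yap1/Taz, beside 5764 of 11320 genes tested. Mertk (-0.16) and Gas6 (-0.16) changed sign in that fit. Leaving out 1 library gave 8 to 12 list genes for bmECs, 0 to 7 for Yap1/Taz and 0 to 12 for Lats2. Such fits called 1817 to 2357 genes of the whole table for bmECs and 1 to 293 for Yap1/Taz. Without Yap1/Taz control replicate 3, the log2 fold change of Axl was 0.034. The replicate block, used although the numbers do not pair the libraries, added Gas6 to the calls in bmECs (limma adjusted p = 0.0278). It gave 4, 0 and 2 members and 16, 0 and 11 list genes, beside 3072, 45 and 2655 genes over all tested. The differences in share stayed at their values with the block. Voom shifted the median of all genes by -0.20 for bmECs and -0.14 for Lats2, and centring by -0.39 for Yap1/Taz and 0.18 for Lats2. Changes in direction among members were limited to the 3 given here. With a pseudocount of 0.1, the log2 difference of Tyro3 was 0.60 in bmECs, 0.81 in Yap1/Taz and -2.34 in Lats2, in place of 0.11, 0.25 and -1.02. Of 342 alternative values, 302 were counted as the same. Fold changes had to keep their direction and side of the threshold. Shares and Tyro3 differences had to move by less than the spread between replicates. Counts of called genes could change within a set ratio, so that 10 list genes in place of 15 for bmECs still counted. Some values could not differ, namely the shares with the replicate block and Tyro3 without a filter. Depth limits Tyro3 most, at 2 to 67 recovered reads.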
